A study of Mus musculus with 12 samples.

Results

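Cd36, Fabp4, Fabp5, Slc27a1 and Slc27a4, 5 genes whose products bind fatty acids or carry them into and through cells, were followed in 12 libraries of RAW 264.7 macrophages. They were taken by name from the deposited count table, where each of the 5 symbols named 1 row of 39179, and all 5 passed the filter on low counts that left 13121 genes tested. RAW 264.7 is a macrophage-like line of BALB/c mouse origin. Stable cells had been nucleofected with a short hairpin RNA and kept under puromycin selection, either sh-PHLPP1, named for the phosphatase Phlpp1, or sh-Luc, the control hairpin named for luciferase. Each line was sequenced after 24 hours with oxidized low-density lipoprotein (OxLDL) at 100 µg/ml and without treatment. The 4 groups of 3 libraries are therefore sh-PHLPP1 with OxLDL, sh-PHLPP1 untreated, sh-Luc with OxLDL and sh-Luc untreated, and in each group replicates 1, 2 and 3 are cells of passage 9, 10 and 11. The sources used here do not say whether a line is 1 clone or whether replicates of a passage shared a culture, so the p-values measure the spread between these libraries, which may be partly technical.

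CD36 is a class B scavenger receptor at the cell surface that binds oxidized LDL and also long-chain fatty acids, and in macrophages it is one of the main routes by which modified lipoprotein enters the cell. The fatty acid binding proteins are small cytosolic carriers. Fabp4 (aP2) and Fabp5 (the epidermal type) are the forms best known from macrophages and adipocytes. Slc27a1 and Slc27a4 encode the fatty acid transport proteins FATP1 and FATP4, membrane proteins that also activate fatty acids to acyl-CoA. The receptor and the carrier Fabp4 are textbook targets of the nuclear receptor PPARγ, which oxidized lipids can activate.

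Fabp4 and Fabp5 are paralogues that lie near each other, and Slc27a1 and Slc27a4 are paralogues on different chromosomes. The coding stretches below show how closely each pair matches, and for Fabp5 how closely a processed pseudogene matches it, because that decides how far reads can be assigned. Sequences follow the GENCODE M21 annotation of GRCm38. In Fabp4 and Fabp5, capitals mark bases that are the same in both, and in the pseudogene Gm6166 (chromosome 9) they mark bases that are the same as in Fabp5.
Fabp4: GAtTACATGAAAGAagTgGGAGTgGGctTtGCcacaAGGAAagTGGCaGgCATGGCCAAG
Fabp5: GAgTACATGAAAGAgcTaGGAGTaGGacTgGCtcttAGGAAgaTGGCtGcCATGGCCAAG
Gm6166: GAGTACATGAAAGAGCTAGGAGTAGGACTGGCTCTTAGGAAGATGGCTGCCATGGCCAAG
These 60 bases start at coding base 55 of Fabp4 and at coding base 61 of Fabp5. Fabp4 and Fabp5 share 44 of the 60 bases, and their longest identical run over the whole coding sequence is 12 bases, with 62.2% of aligned bases identical. Gm6166 shares all 60 with Fabp5, and over the whole alignment 402 of 407 bases, with an identical run of 179.
Slc27a1: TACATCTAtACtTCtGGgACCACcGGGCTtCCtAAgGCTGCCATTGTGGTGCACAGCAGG
Slc27a4: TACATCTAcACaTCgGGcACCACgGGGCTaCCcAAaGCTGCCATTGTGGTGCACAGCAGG
The Slc27a1 stretch starts at coding base 736 and the Slc27a4 stretch at coding base 727, with capitals for bases that are the same in both. They share 52 of 60 bases, and the pair is 67.2% identical over its aligned coding sequence with a longest run of 26 bases. No 50-base stretch of Cd36, Fabp4 or Slc27a4 transcripts occurred in a transcript of another gene, and of those of Slc27a1 1.43% did.

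All 5 genes are protein-coding in GRCm38. Cd36 spans chr5:17781690-17888801 on the minus strand. Fabp5 lies at chr3:10012548-10016607 on the plus strand and Fabp4 at chr3:10204088-10208576 on the minus strand, with 187480 bases between them. The family members Pmp2 and Fabp9, which lie between them, and Fabp12, which lies beyond Fabp4, had 0 counts in all 12 libraries. Slc27a1 lies at chr8:71568882-71587302 and Slc27a4 at chr2:29802634-29817522, both on the plus strand. No other annotated gene overlapped any of the 5.

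The 250 bases before 1 RefSeq start of Cd36 (GRCm38.p6, chr5:17835897-17836146, minus strand, inside the gene's span) are shown because Cd36 changed with both treatment and line.
Cd36: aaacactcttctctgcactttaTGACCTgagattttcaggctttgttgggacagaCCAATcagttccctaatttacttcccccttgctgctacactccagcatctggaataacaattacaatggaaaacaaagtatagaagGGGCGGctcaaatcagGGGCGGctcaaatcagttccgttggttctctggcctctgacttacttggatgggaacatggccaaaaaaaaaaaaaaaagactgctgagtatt
Capitals mark the letters AGGTCA (a nuclear receptor half-site, here as TGACCT on the other strand, 228 bases before the start), CCAAT (195 before) and GGGCGG (109 and 93 before). The stretch aggggcggctcaaatc, 16 bases long, occurs 2 times in a row. On either strand AGGTCA was found in 16.3%, CCAAT in 37.4% and GGGCGG in 35.7% of 32851 RefSeq promoter windows of 300 bases, so none of these matches sets Cd36 apart. The direct repeat of that half-site with 1 base between (DR1, the arrangement PPARs bind), found in 0.0396% of windows, was not in the windows of Cd36, Slc27a1 or Slc27a4. So rare an exact sequence is absent from nearly all windows, and its absence does not set these genes apart. Fabp4 and Fabp5 had no window here and were not searched. A match here is a description of letters and not of a bound site.

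Libraries held 16020186 to 27422114 counts assigned to genes. Levels are given as CPM, a gene's count relative to its library's total after TMM normalisation (a trimmed-mean factor of 0.778 to 1.14 here), and tests are edgeR quasi-likelihood F tests over 13121 genes with Benjamini-Hochberg adjustment, called at an adjusted p under 0.05. Pairs of replicates correlated at 0.966 to 0.995 in log2 CPM. Untreated sh-Luc replicate 2 and untreated sh-PHLPP1 replicate 1 stood apart from their groups, with correlations of at most 0.984 and 0.967 to the other libraries of their group, and sh-PHLPP1 OxLDL replicate 3 did so less (0.984 and 0.987). Phlpp1, the gene the hairpin is named for, stood at 8.65, 8.35 and 7.40 CPM in sh-PHLPP1 with OxLDL, 17.3, 14.6 and 14.0 CPM in untreated sh-PHLPP1, 11.4, 13.5 and 11.4 CPM in sh-Luc with OxLDL and 12.4, 14.4 and 13.3 CPM in untreated sh-Luc. With OxLDL, sh-PHLPP1 libraries had less of it than sh-Luc libraries (log2 fold change -0.57 ± 0.14 (SE), edgeR adjusted p = 0.00385), whereas untreated sh-PHLPP1 libraries had a mean above that of untreated sh-Luc (0.19 ± 0.13, adjusted p = 0.279). The untreated transcript level thus does not bear out the label, and every difference below between untreated lines is a difference between libraries so labelled. The same untreated libraries are the baseline of both OxLDL responses and of their difference, so the size of each response and the sign of that difference rest on the labels too.

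**Figure D1:**
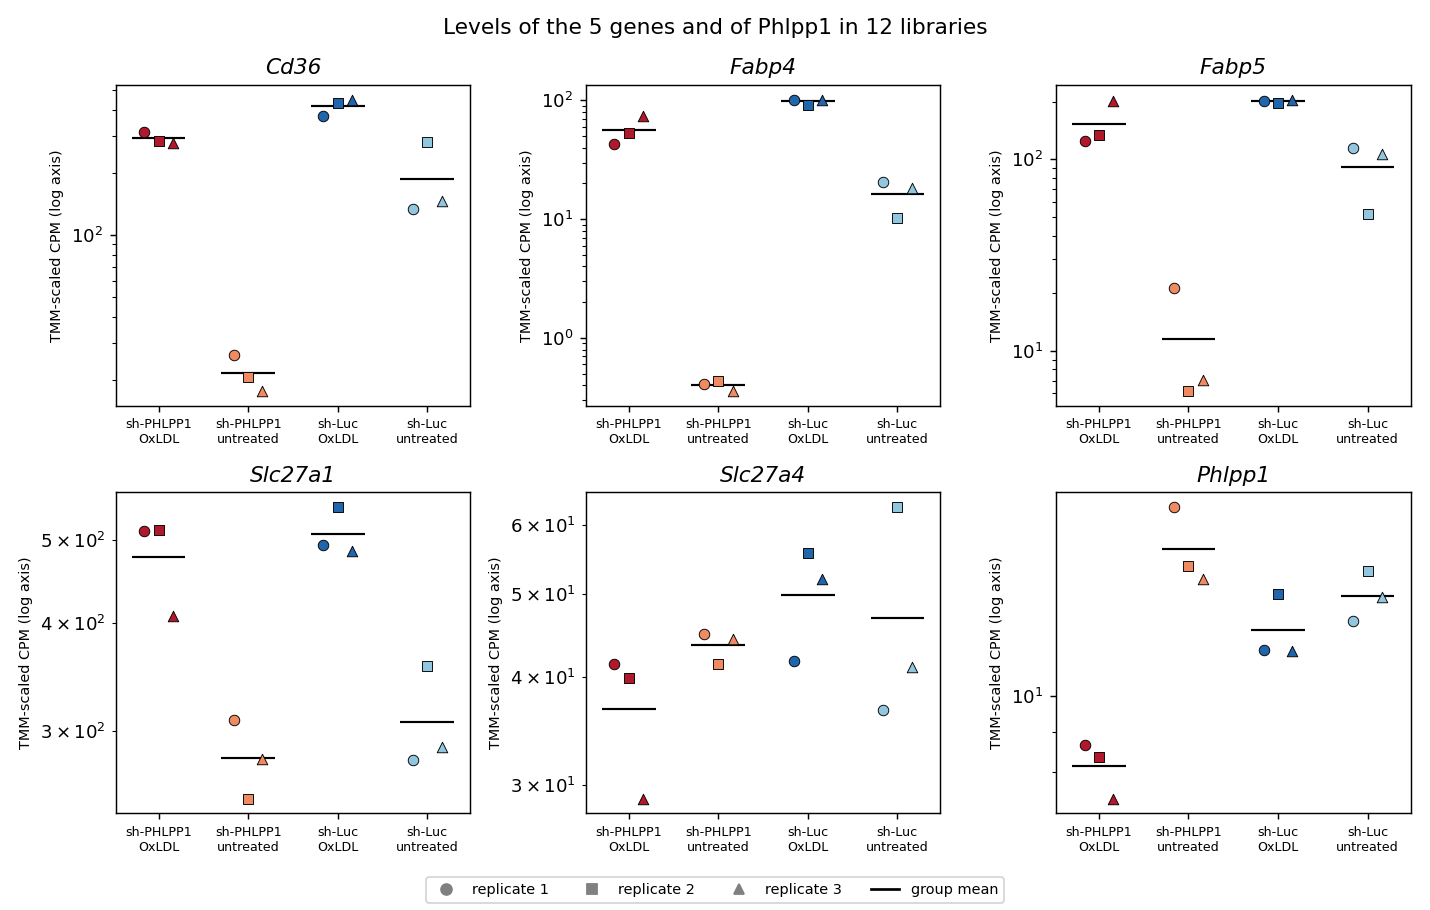
Level of each of the 5 genes and of Phlpp1 in TMM-scaled CPM (log axis) in 12 libraries, grouped on the x axis by hairpin and treatment, with symbols for replicate numbers and a bar for the mean of 3. The Fabp4 panel spans the widest range, with 0.357 to 0.433 CPM in untreated sh-PHLPP1 against 10.1 to 102 CPM in the other 3 groups, while the Slc27a4 panel covers 28.9 to 63.0 CPM in all.

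The receptor and both cytosolic carriers rose with OxLDL in sh-PHLPP1 and were lower in untreated sh-PHLPP1-labelled libraries, Slc27a1 rose with OxLDL in both lines, and Slc27a4 passed the test in none. OxLDL raised 4 of the 5 genes in the sh-PHLPP1 line (all but Slc27a4), where 26.2% of all genes tested were called higher, 28.4% lower and 54.6% in either direction. In the sh-Luc line OxLDL raised 3 of 5 (Cd36, Fabp4 and Slc27a1), against 6.38% of all genes called higher, 3.09% lower and 9.47% in either direction. Between untreated lines 3 of 5 were lower in sh-PHLPP1-labelled libraries (Cd36, Fabp4 and Fabp5), against 12.2% of all genes called lower, 14.9% higher and 27% in either direction. After OxLDL 1 of 5 was lower (Fabp4), against 27.6% of all genes called lower, 27.6% higher and 55.2% in either direction. That count is near the share called lower and does not set the 5 apart. It depends on the fit, and was 4 with only the 6 libraries compared. In the authors' deposited table Cd36, Fabp5 and Slc27a4 were lower too, each with an adjusted p under 0.05. The response to OxLDL was larger in sh-PHLPP1 than in sh-Luc for 3 of 5 (the interaction of line and treatment), against 11.1% of all genes with a positive call, 13.6% with a negative one and 24.6% in either direction. The median log2 fold change of the 5 was 3.74 for OxLDL in sh-PHLPP1, 1.15 for OxLDL in sh-Luc, -2.99 between untreated lines, -0.44 between lines after OxLDL and 2.60 for the interaction, where the medians over all genes tested lay between -0.05 and 0.03. The comparisons share groups, so these counts are not independent of each other.

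Cd36, the receptor, had 315, 285 and 278 CPM in sh-PHLPP1 with OxLDL and 26.4, 20.6 and 17.6 CPM in untreated sh-PHLPP1. In sh-Luc it had 376, 432 and 450.2 CPM with OxLDL and 133, 282 and 146 CPM untreated. The order of the group means was thus sh-Luc with OxLDL, sh-PHLPP1 with OxLDL, untreated sh-Luc and, far below, untreated sh-PHLPP1, and of these neighbours only sh-PHLPP1 with OxLDL and untreated sh-Luc overlapped, through untreated sh-Luc replicate 2. OxLDL raised Cd36 13.6-fold in sh-PHLPP1 (log2 fold change 3.77 ± 0.27 (SE), adjusted p = 4.33e-07) and 2.24-fold in sh-Luc (1.16 ± 0.24, adjusted p = 0.0104). In a bulk sample, fewer cells with the transcript and less transcript per cell cannot be told apart.

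Between untreated lines Cd36 was 8.70-fold lower in sh-PHLPP1-labelled libraries (log2 fold change -3.12 ± 0.26, adjusted p = 1.37e-05), the 79th lowest of all genes tested. After OxLDL the difference between lines was -0.52 ± 0.24 and was not called (adjusted p = 0.0851, 95% interval -1.04 to 0.00), although the 3 libraries of each group did not overlap. The authors' deposited table gives -0.51 with an adjusted p of 8.10e-06 for that comparison, and in the present tests it was called under 5 of 20 other settings, among them a fit of the 6 libraries compared (adjusted p = 0.00102). Leaving out untreated sh-Luc replicate 2 also called it (adjusted p = 0.00646). Without that library the OxLDL response in sh-Luc was 1.59 and the difference between untreated lines -2.70. Within passages 9, 10 and 11 the log2 ratio of sh-PHLPP1 to sh-Luc was -2.34, -3.78 and -3.05 untreated and -0.26, -0.60 and -0.69 after OxLDL.

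Fabp4, the carrier that loads fatty acids in adipocytes and lipid-laden macrophages, had the widest range of the 5. It had 42.7, 52.8 and 74.1 CPM in sh-PHLPP1 with OxLDL and 0.412, 0.433 and 0.357 CPM in untreated sh-PHLPP1, where the libraries held only 9, 13 and 9 counts. In sh-Luc it had 102, 91.3 and 101 CPM with OxLDL and 20.5, 10.1 and 18.4 CPM untreated. No group overlapped another. The floor set by 3 counts in a library lay between 0.0999 and 0.137 CPM in untreated sh-PHLPP1, so the gene was detected there at a low level rather than at the floor.

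OxLDL raised Fabp4 by 7.12 ± 0.35 on the log2 scale in sh-PHLPP1 (139-fold, adjusted p = 1.91e-08), the 43rd highest of all genes tested, and by 2.59 ± 0.24 in sh-Luc (6.01-fold, adjusted p = 4.81e-05), the 56th highest. Untreated, it was 40.0-fold lower in sh-PHLPP1-labelled libraries (-5.32 ± 0.34, adjusted p = 2.07e-06), the 7th lowest of all genes. It was also the gene of the 5 that stayed lower after OxLDL, by 1.74-fold (-0.80 ± 0.23, adjusted p = 0.0113). Within passages 9, 10 and 11 the log2 ratio between lines was -5.63, -4.55 and -5.69 untreated and -1.25, -0.79 and -0.45 after OxLDL. These calls held in all 20 other settings, with adjusted p up to 0.0497 after OxLDL.

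**Figure D2:**
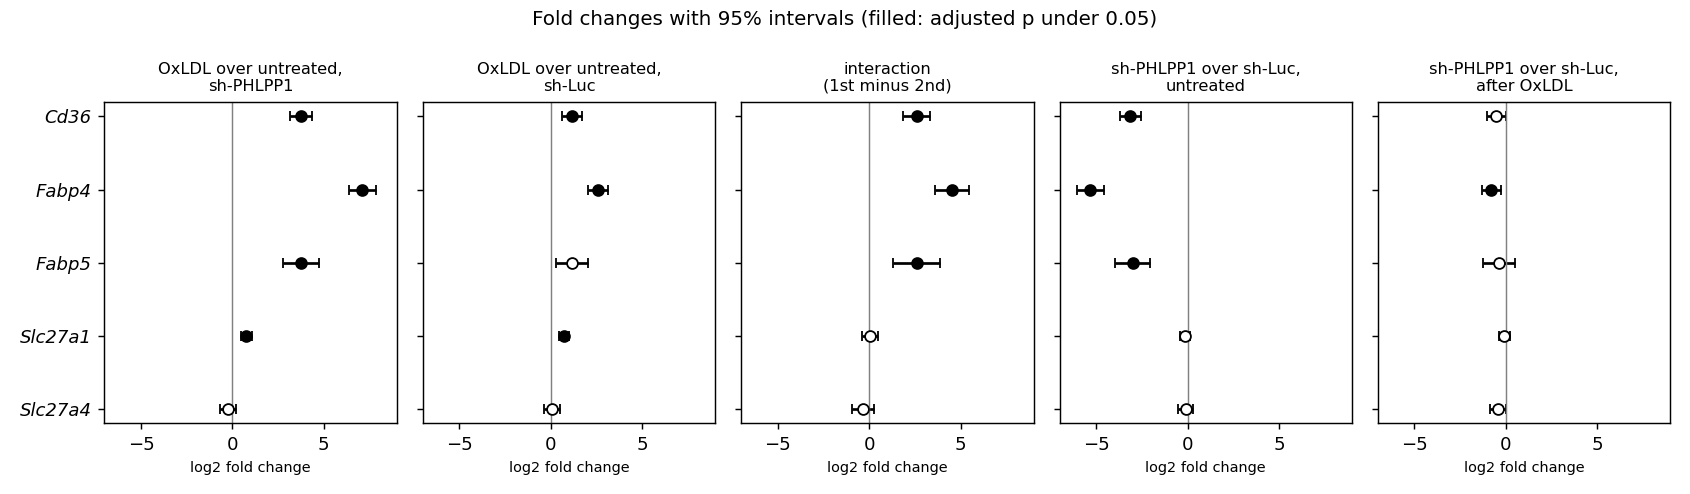
Log2 fold change of the 5 genes (y axis) in 5 comparisons with 95% intervals, filled where the adjusted p was under 0.05. Cd36, Fabp4 and Fabp5 lie far right of 0 for OxLDL in sh-PHLPP1 (3.74 to 7.12) and far left between untreated lines (-5.32 to -2.99). Between lines after OxLDL they lie less far left (-0.80 to -0.39), and there only Fabp4 is filled.

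Fabp5, the second cytosolic carrier, had 125, 133 and 202 CPM in sh-PHLPP1 with OxLDL and 21.4, 6.16 and 7.05 CPM in untreated sh-PHLPP1. In sh-Luc it had 202, 197 and 205 CPM with OxLDL and 114, 51.8 and 107 CPM untreated. Both libraries that stood apart were extreme here, replicate 1 as the highest of untreated sh-PHLPP1 and replicate 2 as the lowest of untreated sh-Luc. OxLDL raised Fabp5 13.4-fold in sh-PHLPP1 (log2 fold change 3.74 ± 0.45, adjusted p = 3.07e-05). Without untreated sh-PHLPP1 replicate 1 that change was 4.53 (adjusted p = 5.87e-07), and the interaction of Fabp5 was 3.38. In sh-Luc the change was 1.15 ± 0.41, not called (adjusted p = 0.0962) although the groups did not overlap. The authors' deposited table gives 1.15 for it with an adjusted p of 7.82e-05, and it was called under 4 of 20 other settings, including a fit without untreated sh-PHLPP1 replicate 1, a library of neither group (adjusted p = 0.00600).

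Untreated, Fabp5 was 7.94-fold lower in sh-PHLPP1-labelled libraries (-2.99 ± 0.44, adjusted p = 0.000917), and without untreated sh-PHLPP1 replicate 1 the value was -3.79. After OxLDL the lines overlapped (-0.39 ± 0.40, adjusted p = 0.427, 95% interval -1.26 to 0.48), and only 2 of 20 other settings called a difference. The authors' deposited table gives -0.38 with an adjusted p of 0.0429. Within passages 9, 10 and 11 the log2 ratio between lines was -2.42, -3.07 and -3.92 untreated and -0.69, -0.56 and -0.02 after OxLDL.

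The level of Fabp5 is less certain than its changes. Of 938 stretches of 50 bases in its longest coding transcript, 198 (21.1%) occur in transcripts of 5 other genes, all annotated as processed pseudogenes, which are intronless copies of a transcript. Gm6166, whose stretch is printed above, held 27205 counts over the 12 libraries, against 27291 for Fabp5 itself. The other 4 held 3695 (Gm14328), 291 (Fabp5l2), 168 (Gm6100) and 9 (Gm13998) counts. Fabp5 made up 43.7% to 48.6% of the summed counts in every library. Summed with the 5 copies, the mean was 323 ± 81.7 CPM in sh-PHLPP1 with OxLDL, 26.1 ± 19.9 CPM in untreated sh-PHLPP1, 433 ± 7.55 CPM in sh-Luc with OxLDL and 197 ± 74.9 CPM in untreated sh-Luc (SD, n = 3 each). Tested as 1 gene, the sum changed by 3.64 ± 0.47 with OxLDL in sh-PHLPP1 and by 1.13 ± 0.42 in sh-Luc, and by -2.93 ± 0.45 between untreated lines, with no call altered. How reads that match several places were counted is not given in the sources used here, and whether the copies are transcribed was not tested.

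**Figure D3:**
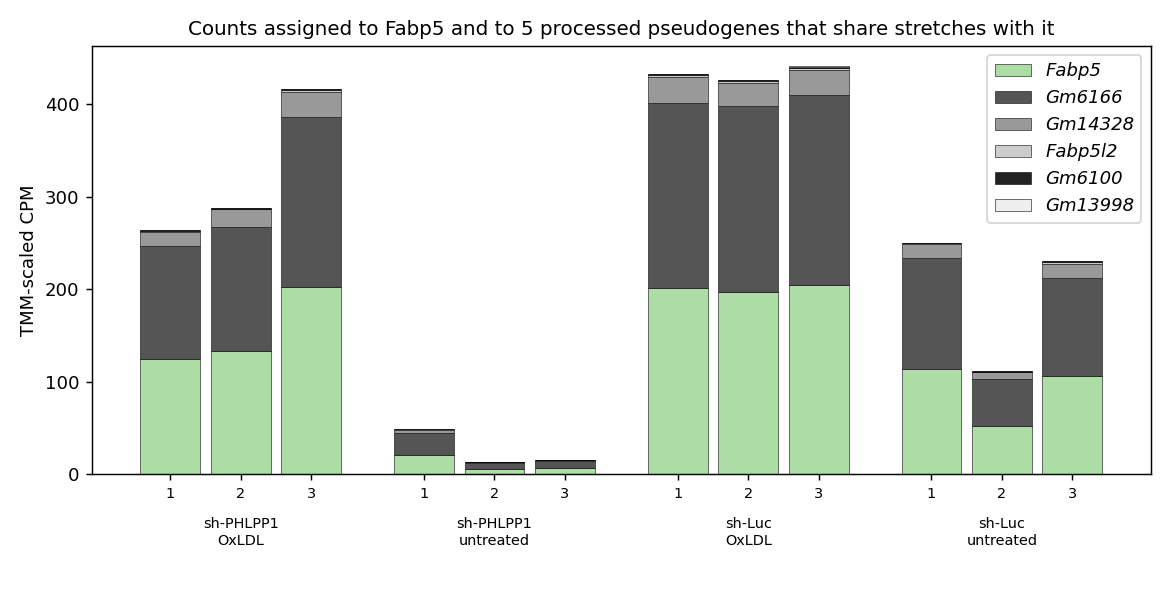
TMM-scaled CPM assigned to Fabp5 and to the 5 processed pseudogenes that share 50-base stretches with it, stacked for each of 12 libraries, with replicate numbers on the x axis. The Fabp5 share of each bar stays within 43.7% to 48.6%, while the bar heights differ between groups, from a mean of 26.1 CPM in untreated sh-PHLPP1 to 433 CPM in sh-Luc with OxLDL.

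Slc27a1, the transporter FATP1, had 511, 514 and 408 CPM in sh-PHLPP1 with OxLDL and 309, 249.9 and 278 CPM in untreated sh-PHLPP1, against 494, 546 and 485 CPM in sh-Luc with OxLDL and 277, 357 and 287 CPM in untreated sh-Luc. Treated libraries were above untreated ones in both lines with no overlap, and the lines overlapped in both conditions. OxLDL raised it 1.71-fold in sh-PHLPP1 (log2 fold change 0.78 ± 0.14, adjusted p = 0.000499) and 1.65-fold in sh-Luc (0.73 ± 0.14, adjusted p = 0.00588). The 2 responses differed by 0.05 ± 0.19 (adjusted p = 0.871, 95% interval -0.37 to 0.47), and the lines by -0.14 ± 0.14 untreated and -0.09 ± 0.14 after OxLDL (adjusted p = 0.459 and 0.598). Scaled by library size alone, the response in sh-PHLPP1 was 0.36 (adjusted p = 0.0458), with the median of all genes at -0.46 on that scale.

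Slc27a4, the transporter FATP4, had 41.5, 39.9 and 28.9 CPM in sh-PHLPP1 with OxLDL, 44.9, 41.4 and 44.3 CPM in untreated sh-PHLPP1, 41.8, 55.7 and 51.9 CPM in sh-Luc with OxLDL and 36.6, 63.0 and 41.1 CPM in untreated sh-Luc. The log2 change with OxLDL was -0.24 ± 0.20 in sh-PHLPP1 (adjusted p = 0.318, 95% interval -0.67 to 0.19) and 0.09 ± 0.20 in sh-Luc (adjusted p = 0.821, -0.34 to 0.51). Untreated, the lines differed by -0.11 ± 0.20 (adjusted p = 0.711), a value whose sign turned in a fit without replicate 2 of untreated sh-Luc (0.16). After OxLDL the difference was -0.44 ± 0.20 (adjusted p = 0.0805), with the highest sh-PHLPP1 library just under the lowest sh-Luc library. It was called under 6 of 20 other settings, among them fits without untreated sh-Luc replicate 2 (adjusted p = 0.0221) and without sh-Luc OxLDL replicate 1 (0.0493), and the authors' deposited table gives it an adjusted p of 0.0160.

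The response to OxLDL differed between lines for the receptor and both carriers. The interaction, the log2 change in sh-PHLPP1 minus that in sh-Luc, was 4.53 ± 0.42 for Fabp4 (adjusted p = 2.66e-05), 2.60 ± 0.35 for Cd36 (adjusted p = 0.000365) and 2.60 ± 0.58 for Fabp5 (adjusted p = 0.00862). It was positive in each of the 3 passages for these genes, with 4.38, 3.76 and 5.24 for Fabp4, 2.08, 3.17 and 2.36 for Cd36 and 1.72, 2.51 and 3.89 for Fabp5. All 3 calls held under 19 other settings, with values of 2.22 to 3.66 for Fabp5. The signs rest on the labels of the untreated libraries, which the level of Phlpp1 does not bear out. In levels, the untreated sh-PHLPP1 libraries lay below the other 3 groups for each of these genes, while the treated libraries of both lines lay within 1.74-fold of each other on average. For Slc27a4 the interaction was -0.33 ± 0.28 (adjusted p = 0.408).

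Levels of different genes were compared per kilobase of merged exons (3590 bases for Cd36, 4489 for Fabp4, 3567 for Fabp5, 5835 for Slc27a1 and 4412 for Slc27a4). On that scale Slc27a1 (81.9 ± 10.4 CPM per kb) and Cd36 (81.6 ± 5.49) did not differ beyond their spread in sh-PHLPP1 with OxLDL, and in untreated sh-PHLPP1 Slc27a1 led with 47.8 ± 5.04, ahead of Slc27a4 at 9.87 ± 0.424 and Cd36 at 6.00 ± 1.25 (SD, n = 3). In sh-Luc with OxLDL Cd36 led with 117 ± 10.8, ahead of Slc27a1 at 87.1 ± 5.63, and in untreated sh-Luc Slc27a1 (52.6 ± 7.44) and Cd36 (52.1 ± 22.9) did not differ beyond their spread. The summed level of the 5 was 227 ± 1.89 CPM per kb in sh-PHLPP1 with OxLDL, 67.0 ± 8.63 in untreated sh-PHLPP1, 294 ± 13.4 in sh-Luc with OxLDL and 145 ± 22.8 in untreated sh-Luc. Cd36 made up 35.9 ± 2.16% of that sum in sh-PHLPP1 with OxLDL and 8.94 ± 1.16% in untreated sh-PHLPP1, against 39.8 ± 2.03% and 35.1 ± 9.50% in sh-Luc with OxLDL and untreated. Fabp5 entered here with its own counts alone, 43.7% to 48.6% of those summed with its copies. In sh-Luc with OxLDL its mean was 201 CPM alone and 433 CPM with the copies, so whether Cd36 led there is uncertain. The order, the sums and the shares depend on that choice in every group.

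The share of Fabp4 among the 2 cytosolic carriers moved as well. Fabp4 was 22.6 ± 1.27% of Fabp4 plus Fabp5 per kb in sh-PHLPP1 with OxLDL and 3.55 ± 1.91% in untreated sh-PHLPP1, against 27.9 ± 0.871% in sh-Luc with OxLDL and 12.7 ± 0.713% in untreated sh-Luc, and no group overlapped another. These shares use the counts assigned to Fabp5 alone and would be lower with its copies added. The SDs do not cover that uncertainty. The order of genes depends on the length used. The longest coding transcripts of Fabp4, Fabp5 and Slc27a1 (896, 987 and 2795 bases) are much shorter than their merged exons. With coding transcript lengths, an alternative chosen after seeing the data, Fabp5 rather than Cd36 led in sh-Luc with OxLDL (204 against 123 CPM per kb), and the Fabp4 share became 28.8%, 4.85%, 34.9% and 16.7% in the same order of groups. The share of Cd36 in the sum of 5 became 17.9%, 4.91%, 19.5% and 19.1% in that order. With these lengths Slc27a1 lay above Cd36 in sh-PHLPP1 with OxLDL (171 against 86.1 CPM per kb) and in untreated sh-Luc (110 against 55.1). It also lay above Cd36 in sh-Luc with OxLDL (182 against 123), so how Slc27a1 and Cd36 compare depends on the length too.

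**Figure D4:**
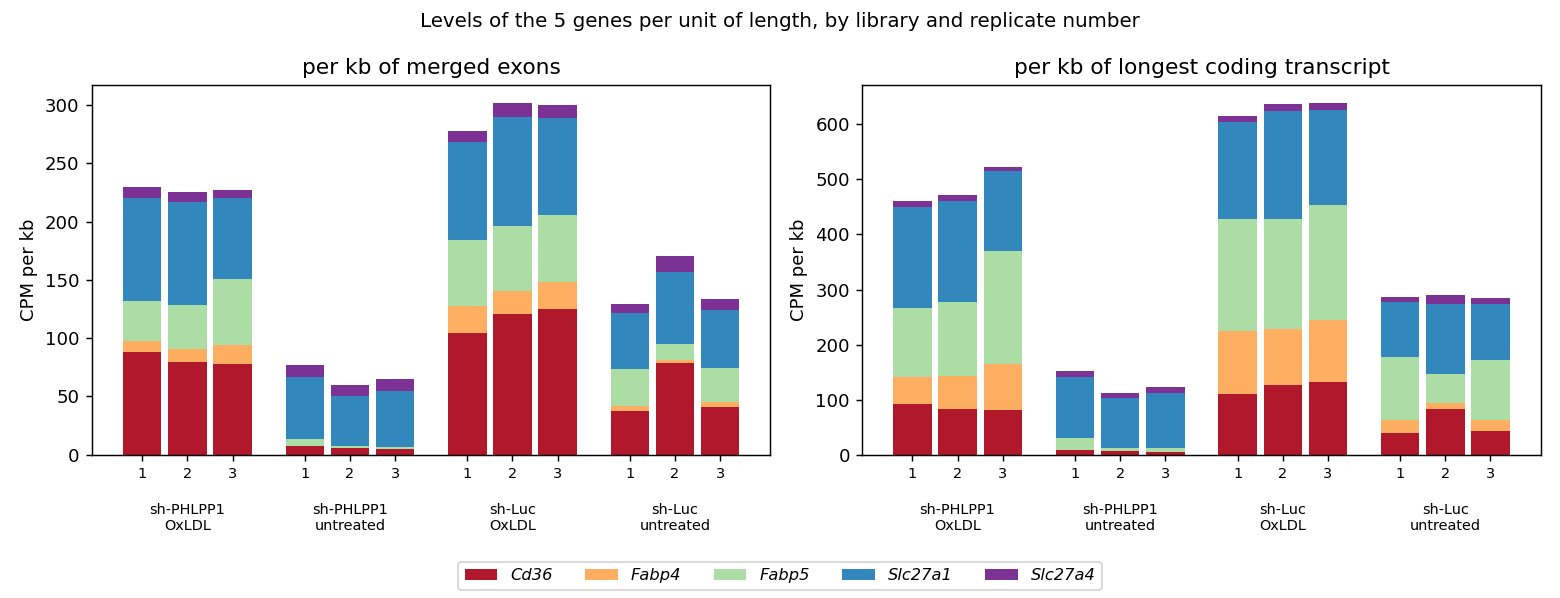
Stacked levels of the 5 genes in CPM per kb for each of 12 libraries, with replicate numbers on the x axis, on the left per kb of merged exons and on the right per kb of the longest coding transcript. On the left the untreated sh-PHLPP1 bars average 67.0 CPM per kb and consist mostly of Slc27a1 (71.5%), while the other 3 groups average 145 to 294.

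Other genes of fatty acid handling were read from lists, which were not tested as sets. The counts called stand beside the shares of all genes tested. With OxLDL these were 26.2% higher and 28.4% lower in sh-PHLPP1, and 6.38% and 3.09% in sh-Luc. Between lines they were 14.9% higher and 12.2% lower untreated, and 27.6% and 27.6% after OxLDL. Of 20 other genes of fatty acid binding and transport, 8 passed the filter, and Fabp6, Fabp9, Fabp12, Slc27a5, Slc27a6 and Gpihbp1 had 0 counts. With OxLDL in sh-PHLPP1, 2 rose and 4 fell (list median -0.10), and in sh-Luc none passed the test (median -0.15, with 0 of 8 called by edgeR). Between lines, 2 were higher and 1 lower untreated, and 2 were higher and 3 lower after OxLDL. Fabp3, the muscle-type carrier, was higher in sh-PHLPP1 where Fabp4 was lower, with 3.58 ± 0.640 CPM in sh-PHLPP1 and 0.829 ± 0.120 CPM in sh-Luc after OxLDL (log2 fold change 2.10 ± 0.37, adjusted p = 0.000549). Untreated, the difference of Fabp3 was 1.69 ± 0.41 (adjusted p = 0.0116), and it lost its call in a fit of only those 6 libraries (adjusted p = 0.0792) and without untreated sh-PHLPP1 replicate 3 (0.0555). Lpl, the lipase that frees fatty acids from triglyceride-rich lipoproteins, had 579.6 ± 151 CPM in sh-PHLPP1 and 1133 ± 117 CPM in sh-Luc after OxLDL (-0.97 ± 0.25, adjusted p = 0.00578). Cav2, a caveolin, had 1.33, 8.42 and 6.26 CPM in untreated sh-PHLPP1, where replicate 1 was low, and 0.532, 0.523 and 0.379 CPM in untreated sh-Luc (3.48 ± 0.60, adjusted p = 0.00224).

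Of the acyl-CoA synthetases, the enzymes that trap fatty acids in the cell as acyl-CoA, 4 of 5 were tested and Acsl6 had 0 counts. Acsl4 rose with OxLDL to 376 ± 48.2 CPM in sh-PHLPP1, against 185 ± 13.7 CPM untreated (1.03 ± 0.11, adjusted p = 1.57e-05). Acsl5 was lower in sh-PHLPP1-labelled libraries in both conditions, at 133 ± 1.86 CPM against 255 ± 15.8 CPM in sh-Luc after OxLDL (-0.94 ± 0.17, adjusted p = 0.000618). The difference was -0.81 ± 0.17 untreated (adjusted p = 0.00573), which a fit of only those 6 libraries did not call (adjusted p = 0.0710).

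Of 14 lipoprotein and scavenger receptors 9 were tested, and Marco and Vldlr had 0 counts. OxLDL raised 4 and lowered 2 in sh-PHLPP1 (median 0.01), where 54.6% of all genes tested were called in either direction. In sh-Luc it raised 1 and lowered 1 (median -0.11), where 9.47% of all genes were called. Msr1, the class A scavenger receptor, had 917 ± 130 CPM with OxLDL and 199 ± 7.66 CPM untreated in sh-PHLPP1 (2.21 ± 0.15, adjusted p = 3.34e-07). Like Cd36 it was lower in untreated sh-PHLPP1-labelled libraries (-0.89 ± 0.15, adjusted p = 0.00196), but after OxLDL it was higher in them (0.95 ± 0.15, adjusted p = 0.000253). Cxcl16, a transmembrane chemokine that also binds oxidized LDL, had 120.0 ± 5.10 CPM with OxLDL and 37.7 ± 6.62 CPM untreated in sh-PHLPP1, against 13.8 ± 0.493 CPM and 33.6 ± 0.744 CPM in sh-Luc, and its response differed between lines by 2.95 ± 0.17 (adjusted p = 7.49e-07). Scarb1, the class B relative of Cd36 that binds HDL, had 58.9 ± 0.932 CPM in sh-PHLPP1 and 126.5 ± 7.03 CPM in sh-Luc after OxLDL (-1.10 ± 0.14, adjusted p = 5.82e-05).

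Of 17 genes listed for CD36 signalling partners and palmitoylation 16 were tested and Yes1 had 0 counts. OxLDL raised 8 and lowered 2 in sh-PHLPP1 (median 0.48) and raised 3 and lowered 0 in sh-Luc (median 0.11). Untreated, 1 was higher and 2 were lower in sh-PHLPP1-labelled libraries (median -0.08), and after OxLDL 5 were higher and 3 lower (median 0.14). The kinase gene Src had 46.4 ± 8.82 CPM with OxLDL and 1.85 ± 0.317 CPM untreated in sh-PHLPP1, against 22.1 ± 2.86 CPM and 7.58 ± 4.19 CPM in sh-Luc, and its response differed between lines by 3.10 ± 0.44 (adjusted p = 0.000596). Syk, the kinase recruited by receptors with activation motifs, was lower in sh-PHLPP1-labelled libraries both untreated (-1.44 ± 0.15, adjusted p = 6.30e-05) and after OxLDL (-0.70 ± 0.14, adjusted p = 0.00150).

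Regulators of Cd36 and Fabp4 transcription did not move as a block. Of 13 listed 11 were tested, and Ppara had 0 counts. OxLDL raised 2 and lowered 6 in sh-PHLPP1 (median -0.63) and raised 3 and lowered 2 in sh-Luc (median 0.11), and between untreated lines 3 were higher and 0 lower (median 0.21). Cebpb rose with OxLDL to 1075 ± 136 CPM in sh-PHLPP1, against 262 ± 46.6 CPM untreated (2.03 ± 0.16, adjusted p = 1.01e-06), and Cebpa fell to 23.9 ± 0.315 CPM, against 69.3 ± 13.5 CPM untreated (-1.53 ± 0.15, adjusted p = 5.24e-06). Rxra, the partner of the PPARs, had 7.08 ± 0.894 CPM with OxLDL and 10.9 ± 3.01 CPM untreated in sh-PHLPP1, against 12.4 ± 0.691 CPM and 5.38 ± 0.628 CPM in sh-Luc, so that OxLDL lowered it in sh-PHLPP1 (adjusted p = 0.0177) and raised it in sh-Luc (adjusted p = 0.00267), with an interaction of -1.83 ± 0.28 (adjusted p = 0.000911). Pparg, named here after its values were seen, had 0.743, 0.652 and 1.04 CPM in sh-PHLPP1 with OxLDL, 2.02, 2.03 and 1.70 CPM in untreated sh-PHLPP1, 2.15, 1.51 and 2.18 CPM in sh-Luc with OxLDL and 1.73, 3.26 and 1.98 CPM in untreated sh-Luc. It fell with OxLDL in sh-PHLPP1 (-1.25 ± 0.32, adjusted p = 0.00530) where Cd36 and Fabp4 rose, and its untreated level did not differ by test between lines (-0.28 ± 0.27, adjusted p = 0.457, 95% interval -0.87 to 0.31). These are transcript levels, and the part of Pparg in the changes of Cd36 and Fabp4 was not tested.

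Of 12 other PPAR target genes, a list that also holds Lpl, 9 were tested, and Pdk4 was among those with 0 counts. OxLDL raised 3 and lowered 5 in sh-PHLPP1 (median -0.90) and raised 3 and lowered 0 in sh-Luc (median 0.27). The lipid droplet genes Plin2 and Hilpda rose in both lines. Hilpda had 282 ± 28.9 CPM with OxLDL and 9.94 ± 1.51 CPM untreated in sh-PHLPP1 (4.83 ± 0.21, adjusted p = 9.14e-09), and 102 ± 10.8 CPM and 21.5 ± 6.38 CPM in sh-Luc (2.24 ± 0.19, adjusted p = 2.81e-05). Angptl4, an inhibitor of lipoprotein lipase, fell with OxLDL in sh-PHLPP1 to 1.30 ± 0.309 CPM, against 8.38 ± 1.95 CPM untreated (-2.67 ± 0.25, adjusted p = 3.46e-06). Between untreated lines 3 of the 9 were higher and 1 lower in sh-PHLPP1-labelled libraries (median 0.00), where Cd36 and Fabp4 were lower.

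**Figure D5:**
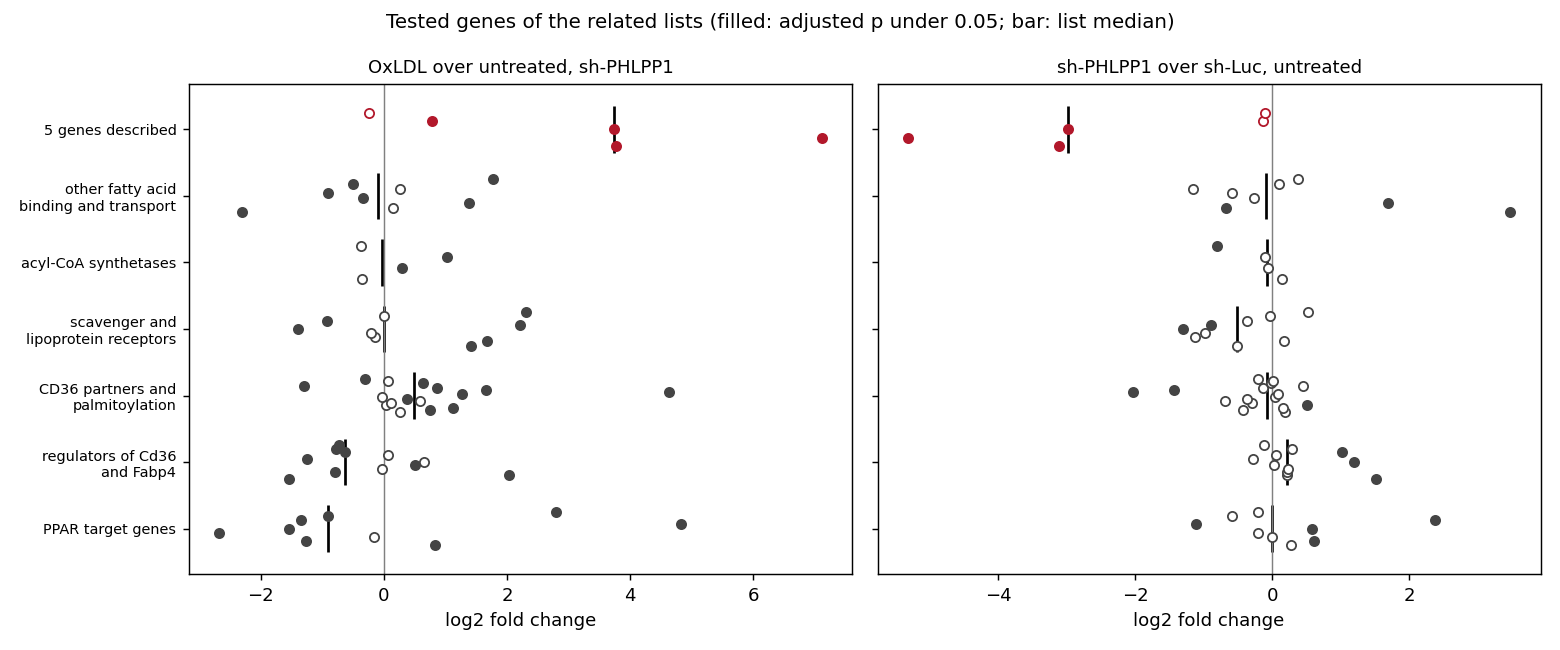
Log2 fold change of every tested gene of the 5 described and of 6 related lists, for OxLDL over untreated in sh-PHLPP1 (left) and for sh-PHLPP1 over sh-Luc untreated (right), filled where the adjusted p was under 0.05, with a bar at each list's median. The medians of the 5 genes are 3.74 and -2.99, while those of the 6 lists lie between -0.90 and 0.48 on the left and between -0.51 and 0.21 on the right.

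The genes most like each member in pattern were ranked by Pearson's r of log2 CPM (prior count 2) over the 12 libraries among 9589 genes, a description in which points share groups and libraries. For Cd36 they were Pdpn (r = 0.987), Nus1, Tgm2, Prss50 and Zwint (0.976). Pearson's r does not measure the size of a change. With OxLDL in sh-PHLPP1 the log2 change was 0.81 for Nus1 and 0.66 for Zwint, against 3.77 for Cd36. For Pdpn, Tgm2 and Prss50 it was 6.78, 4.02 and 3.94. Pdpn, a membrane glycoprotein, had 143 ± 11.2 CPM in sh-PHLPP1 with OxLDL, 1.29 ± 0.0552 CPM in untreated sh-PHLPP1, 595 ± 22.9 CPM in sh-Luc with OxLDL and 69.95 ± 36.9 CPM in untreated sh-Luc (SD, n = 3 each). For Fabp4 they were Bcl6b (0.995), Pdpn, Nos2, Fabp5 and Cd36 (0.969), and for Fabp5 Hcls1 (0.970), Fabp4, Sc5d, Mrpl41 and Fgfr1op (0.962). Hcls1, Sc5d, Mrpl41 and Fgfr1op changed by 0.91, 0.75, 0.63 and 1.32 with OxLDL in sh-PHLPP1, against 3.74 for Fabp5. Neither carrier was among the 5 genes most like Cd36. For Slc27a1 they were Vat1 (0.977), Afg3l2, C77080, Lyst and Mroh1 (0.964), and for Slc27a4 Abca3 (0.965), Slc26a6, Ap1b1, Abcc4 and Sptan1 (0.927). Between Cd36 and Fabp4 r was 0.969 over the 12 libraries and -0.72 for deviations from group means. For Fabp4 and Fabp5 the values were 0.969 and 0.60, and for Cd36 and Fabp5 0.938 and -0.17. Untreated sh-Luc replicate 2 had the largest deviation of the 12 libraries for Cd36 (0.68) and for Fabp4 (-0.62), and -0.73 for Fabp5. The values of -0.72 and 0.60 thus rest largely on untreated sh-Luc and do not describe every group.

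The cells carried macrophage markers, with 11 of 12 tested and Mertk at no more than 3 counts in a library. Their summed level was 17207 to 19612 CPM in sh-PHLPP1 with OxLDL, 11347 to 13330 CPM in untreated sh-PHLPP1, 19060 to 21173 CPM in sh-Luc with OxLDL and 16596 to 19677 CPM in untreated sh-Luc. The untreated sh-PHLPP1 range lay below those of the other groups, as the levels of Cd36, Fabp4 and Fabp5 did, and its part in them was not tested. That sum was carried largely by Lyz2, which had 7154 ± 263 CPM in sh-PHLPP1 and 10597 ± 345 CPM in sh-Luc untreated (-0.57 ± 0.11, adjusted p = 0.00447). A fit of only the 6 untreated libraries did not call Lyz2 (adjusted p = 0.0555). By gene, 2 of 11 markers were higher and 2 lower in untreated sh-PHLPP1-labelled libraries (median -0.05), where 14.9% of all genes tested were higher and 12.2% lower. The fit of 6 also lost the untreated calls of Cd14 (0.0843) and Cd33 (0.0958). After OxLDL 7 markers were higher and 2 lower (median 0.58), where 27.6% of all genes were called in each direction. Of 8 adipocyte markers, Lep and Adrb3 had 0 counts and Adipoq, Cidec and Plin1 no more than 3 in a library, so Fabp4 was measured with these adipocyte genes at or near 0. The calls with OxLDL of the 2 that were tested had the same direction as those of Fabp4. With OxLDL 2 rose in sh-PHLPP1 (median 3.07) and 1 in sh-Luc (median 1.61). Between lines 0 were called untreated (median 0.09) and 1 was higher in sh-PHLPP1 after OxLDL (median 1.55), where Fabp4 was lower. The summed level of that list was 5.69 to 12.6 CPM in sh-PHLPP1 with OxLDL, carried by Cfd, and 0.523 to 2.49 CPM in the other 3 groups. Osteoclast markers, which RAW 264.7 cells switch on when they differentiate, differed between the lines. Of 8 tested, 0 were higher and 6 lower in untreated sh-PHLPP1-labelled libraries (median -1.77), where 12.2% of all genes tested were lower. After OxLDL 1 was higher and 6 lower (median -1.75), where 27.6% of all genes were called in each direction. Ctsk stood at -6.34 ± 0.59 untreated (adjusted p = 2.76e-05). The untreated call of Acp5 was lost in a fit of only those 6 libraries (adjusted p = 0.0758). The summed level of the osteoclast markers was 703 to 826 CPM in sh-PHLPP1 with OxLDL, 112 to 193 CPM in untreated sh-PHLPP1, 408 to 553 CPM in sh-Luc with OxLDL and 257 to 691 CPM in untreated sh-Luc, with Calcr at 0, and their part in the differences of Cd36, Fabp4 and Fabp5 was not tested. Mmp9, the 1 marker higher after OxLDL, carried most of the sum in sh-PHLPP1 with OxLDL, at 685 ± 53.0 CPM against 119 ± 40.4 CPM in sh-Luc with OxLDL (2.52 ± 0.22, adjusted p = 5.07e-06). Endothelial, fibroblast and epithelial, and lymphocyte markers summed to at most 11.3, 5.03 and 0.476 CPM in any library.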

How the data were processed

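RNA-seq of 12 libraries (4 groups of 3) was measured as raw read counts per gene, deposited by the authors as 1 table of whole numbers. Tools named in the submitters' processing notes are Trimmomatic, FastQC, HTSeq and DESeq2, with the build GRCm38; no source used here gives the aligner or the handling of reads that match several places. The authors' deposited tables of comparisons hold log2 fold changes, test statistics (a score) and p-values, quoted only where named. Here counts were filtered with filterByExpr, scaled by TMM and fitted with edgeR 4.0.16 (R 4.3.3), 1 mean for each of 4 groups, with quasi-likelihood F tests adjusted over 13121 genes. Floors and SDs cover counting or replicate error only. Steps were tested on simulated data. Lengths and sequences came from GENCODE M21 and RefSeq. The genes and lists were chosen with earlier results of these data known. From each list, up to 3 genes with the smallest p in a comparison could be named, and for each of the 5 genes the 5 with the highest correlation. Alternatives included DESeq2 1.42.0.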

Additional observations from a re-analysis of the deposited data

Results flagged for a closer look

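The OxLDL response of 3 of the 5 genes and of Phlpp1 differed between the lines by a test of the difference itself, the edgeR interaction of line and treatment adjusted over all genes. The log2 response in sh-PHLPP1 minus that in sh-Luc was 4.53 for Fabp4, 2.60 for Cd36 and 2.60 for Fabp5, positive in 3 of 3 passages for each, with adjusted p of 2.66e-05, 0.000365 and 0.00862. For Phlpp1 it was -0.77 (adjusted p = 0.0133), negative in 3 of 3 passages, so the targeted transcript was lower than in sh-Luc after OxLDL and not before it. Groups of 3 libraries were too small for a test of single outlying libraries.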

How the results depend on the processing

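Over up to 20 other settings, Cd36, Fabp4 and Slc27a1 kept their calls for OxLDL in both lines, Fabp5 for OxLDL in sh-PHLPP1, and all 3 of Cd36, Fabp4 and Fabp5 their calls between untreated lines and for the interaction. Of 116 results for genes of the lists, 84 kept their call in every setting. The number of the 5 genes called between lines after OxLDL was 1, and became 3 with library size alone and with no filter, and 4 without both libraries that stand apart and in a fit of only the 6 libraries compared. Leaving out 1 library at a time gave 1 to 3. Elsewhere the count went to 4 in 4 of 20 settings for OxLDL in sh-Luc (3 as reported), to 5 in 1 of 20 for OxLDL in sh-PHLPP1 (4) and to 4 in 1 of 19 for the interaction (3), and stayed 3 between untreated lines. Values that were not called changed sign for Slc27a4 between untreated lines (0.0231 with library size alone, 0.13 without both libraries that stand apart) and for the Slc27a1 interaction (-0.33, -0.00725 and -0.00378 with library size alone, no filter and without both libraries). Leaving out 1 library gave -0.0551 to 0.36 for Slc27a4 with OxLDL in sh-Luc, -0.26 to 0.16 for it between untreated lines, and -0.0828 to 0.15 for the Slc27a1 interaction. Acsl3 with OxLDL in sh-PHLPP1 was -0.13 with library size alone. That scaling moved the median of all genes to -0.46 there and to -0.25 between lines after OxLDL, and the share of calls that were higher to 19.8% (48.0% as reported) and 29.9% (as many higher as lower as reported), with 72.5% (54.9%) between untreated lines and 11.9% (44.9%) for the interaction. Genes called in all were 564 to 3528 for OxLDL in sh-Luc (1242 as reported), 733 (only the 6 libraries compared) to 6372 (without sh-PHLPP1 untreated replicate 1) between untreated lines (3549) and 2114 to 5319 for the interaction (3231). With replicate number as a block the members called stayed 4 and 3 for OxLDL in sh-PHLPP1 and sh-Luc, 3 and 1 between lines untreated and after OxLDL, and 3 for the interaction, and all genes called were 6984 for OxLDL in sh-PHLPP1 and 1115 in sh-Luc. Replicate numbers, which are also passages, were not used as pairs in the main fit. Of 18 same-number pairs, 5 had a correlation of deviations above 0.1 (-0.28 to 0.28), and in 9 the same number gave the highest correlation. With 3 libraries in a group these values cannot decide whether the numbers pair the samples. The cause of these shifts was not tested. The level of Fabp4 in untreated sh-PHLPP1 rests on 9 to 13 counts a library.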
